A study of Mus musculus with 12 samples.

Results

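The genes described here encode enzymes that modify foreign chemicals, retinoids, steroids, fatty acids and aldehydes. They belong to 5 families, the cytochromes P450 (Cyp), glutathione S-transferases (Gst), UDP-glucuronosyltransferases (Ugt), sulfotransferases (Sult) and aldehyde dehydrogenases (Aldh). Members were taken by gene symbol, with no threshold on their values, and 182 of the 23337 genes present in both count tables matched: 102 Cyp, 21 Gst, 21 Ugt, 18 Sult and 20 Aldh genes. RNA came from peeled mouse urothelium, the epithelium that lines the bladder and urinary tract, of animals labelled Stag2-WT (WT below) or Stag2-KO (KO below). Stag2 encodes a subunit of cohesin, the ring-shaped complex that holds sister chromatids together and shapes chromatin loops. Both genotypes ate a diet containing TMX, read here as tamoxifen, for 1 week, so the diet is shared by every library and no library comes from mice without it. Tissue was taken 1 week or 1 month after the diet began, from 3 WT and 3 KO mice at each time. The labels give neither strain, age, sex, nor the promoter that drives the recombination. All 6 libraries of 1 week form batch 1, and at 1 month replicates 1 and 2 of each genotype form batch 2 and replicate 3 of each forms batch 3, so time and batch cannot be told apart.

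Metabolism of foreign compounds is usually described in phases. In phase I, P450 enzymes insert oxygen into a substrate and aldehyde dehydrogenases oxidise aldehydes to acids. In phase II, Gst enzymes attach glutathione, Ugt enzymes attach glucuronic acid and Sult enzymes attach sulfate, which makes the product more soluble and easier to excrete. Retinoid metabolism uses the same families: the enzymes Aldh1a1, Aldh1a2 and Aldh1a3 make retinoic acid from retinaldehyde and the Cyp26 enzymes degrade it. Urothelium is exposed to metabolites carried in urine, and retinoic acid signalling is known for its part in the formation and repair of this epithelium.

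Each library held between 5580961 and 9497088 counts of 3′ end tags. Levels are given as CPM, a library-scaled count, after TMM scaling, in which 3 counts, taken as the detection floor, correspond to 0.316 to 0.538 CPM. A gene is compared with itself across libraries, since tag counts are not set against transcript length. Stag2 had 120.3, 108 and 154 CPM in WT and 76.2, 61.1 and 69.3 CPM in KO at 1 week, and 59.2, 61.9 and 46.4 CPM in WT and 38.0, 36.4 and 19.3 CPM in KO at 1 month, lower in each KO library than in each WT library of its time. Xist, the non-coding RNA of the inactive X chromosome, had 6392 to 10406 counts in the 3 KO libraries of 1 week and 7764 in KO replicate 3 of 1 month, against at most 28 in the other 8 libraries. At 1 week genotype and Xist level therefore cannot be told apart. All 16 listed urothelial markers were measured, with summed levels of 13841 to 34662 CPM. KO replicate 3 of 1 week stood apart: the chi-square per degree of freedom of its counts against the other KO libraries of that time was 128 and 185, against 55.8 between those 2.

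Most of the 182 genes were scarcely expressed. In total 33 had no count in any of the 12 libraries, 62 had 1 to 10 counts over all 12, and 117 passed the low-count filter at neither time. The filter left 64 genes at 1 week (19 Aldh, 21 Cyp, 17 Gst, 2 Sult and 5 Ugt) and 56 at 1 month (16 Aldh, 19 Cyp, 17 Gst, 2 Sult and 2 Ugt). Among the retinoic acid degrading enzymes, Cyp26a1 and Cyp26c1 had 1 count each over all libraries, while Cyp26b1 was measurable in every library. Cyp4b1, a P450 known to activate aromatic amines in bladder, reached at most 0.799 CPM, and Aldh8a1, an aldehyde dehydrogenase, at most 2.25 CPM. Some genes cannot be read singly from 3′ tags. All 50-base windows in the last 250 bases of Gstp1, a transferase of the pi class, also occur in Gstp2, and those of Ugt1a1, Ugt1a2, Ugt1a5, Ugt1a6a, Ugt1a6b, Ugt1a9 and Ugt1a10 recur in other Ugt1a genes. The Ugt1a genes, which glucuronidate bilirubin and phenols, are therefore given as a sum, which ranged from 19.4 to 39.3 CPM in WT and 12.6 to 40.5 CPM in KO at 1 week and from 2.91 to 12.1 CPM in WT and 5.17 to 7.99 CPM in KO at 1 month. These ranges overlapped at both times. How reads that fall in several genes were counted is not given in the sources used here. The sum may therefore leave out such reads and is not a full measure of these genes.

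A single gene held most of the counts of the 182 genes in all but 1 library, KO replicate 3 of 1 week. Gstm1, a mu-class transferase (chr3:108012255-108017973, minus strand, GENCODE M21 annotation of GRCm38), made up 47.1% to 79.1% of them. The 182 genes made up 2.56, 2.77 and 2.30% of the library in WT and 1.56, 1.44 and 0.745% in KO at 1 week. At 1 month they made up 3.30, 2.50 and 2.16% in WT and 3.40, 2.65 and 2.35% in KO. The share was lower in every KO library than in every WT library at 1 week, with the lowest value in KO replicate 3, and the genotypes overlapped at 1 month. Gst genes other than Gstm1 summed to 3651 ± 94.6 CPM (SD, n = 3) in WT and 3220 ± 629 CPM (SD, n = 3) in KO at 1 week, with overlapping ranges. The summed Cyp level was 785 ± 56.9 CPM (SD, n = 3) in WT and 396 ± 32.2 CPM (SD, n = 3) in KO at 1 week, without overlap, and 606 ± 120 CPM (SD, n = 3) and 558 ± 48.6 CPM (SD, n = 3) at 1 month, with overlap. Most of the difference at 1 week lay in 2 of the 102 Cyp genes: the mean of Cyp2f2 was 249.97 ± 23.8 CPM (SD, n = 3) in WT and 7.83 ± 12.5 CPM (SD, n = 3) in KO, and that of Cyp4f15 was 171 ± 32.7 CPM (SD, n = 3) in WT and 51.7 ± 44.1 CPM (SD, n = 3) in KO. The summed Ugt level was 194 ± 14.8 CPM (SD, n = 3) in WT and 35.4 ± 9.23 CPM (SD, n = 3) in KO at 1 week, most of it from Ugt2b34 in WT. Since these are bulk samples, fewer cells of a type and less RNA per cell cannot be told apart in any of these values.

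**Figure D1:**
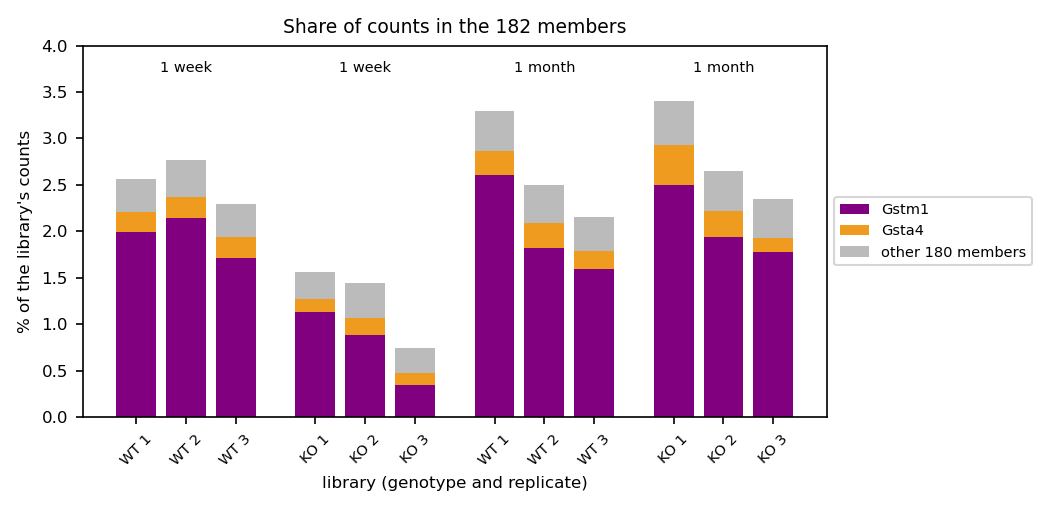
Percent of each library's counts in the 182 enzyme genes, stacked as Gstm1, Gsta4 and the other 180 genes, for the 12 libraries by genotype and time. The 3 KO libraries of 1 week, at 0.745% to 1.56%, stand below the 3 WT libraries of that time, at 2.30% to 2.77%, and the genotypes overlap at 1 month.

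The first comparison asks how the enzymes stood in KO against WT urothelium at 1 week. Several enzymes had lower values in KO. The glucuronidating enzyme genes Ugt2b34 and Ugt2b35, the P450 gene Cyp2f2, the aldehyde dehydrogenase genes Aldh6a1 and Aldh3a1 and the transferase genes Gstm1 and Gsta3 were each lower in all 3 KO libraries than in any WT library. Values in the other direction included Aldh1a2, which makes retinoic acid, and the folate enzyme gene Aldh1l2. None of the 64 tested genes passed an adjusted p of 0.05 in edgeR's quasi-likelihood test, in which 0.0627% of all 12754 tested genes passed (0.0157% higher and 0.0470% lower in KO). At an unadjusted p under 0.05 there were 17 of 64, 5 higher and 12 lower in KO, beside 15.5% of all tested genes, 10.5% higher and 5.03% lower. The genotypes did not overlap in CPM for 23 of 64, 7 higher and 16 lower, beside 26.5% of all tested genes, 14.1% higher and 12.5% lower. DESeq2 called 12 of 63, 3 higher and 9 lower, beside 7.52% of all genes it tested, 5.40% higher and 2.12% lower. The median log2 ratio of KO over WT was -0.25 over the 64 genes and 0.02 over all tested genes. By family it was 0.14 for Aldh, -0.21 for Cyp, -0.56 for Gst, -1.27 for the 2 Sult and -0.63 for the 5 Ugt genes. Nothing is read from the Sult and Ugt medians. Sult4a1 passed the filter only through WT, while Sult1a1 had a log2 ratio of 0.96. The summed Sult level was 7.31 CPM in WT and 11.0 CPM in KO, with overlap. The Ugt median is the value of Ugt1a6a, which cannot be read singly, and Ugt2b35 passed the filter only through WT. Without KO replicate 3, edgeR called 6 of the genes, Aldh3a1, Aldh6a1, Cyp4f15, Gsta3, Ugt2b34 and Ugt2b35, all lower in KO, beside 2.45% of all genes, and without KO replicate 1 it called Cyp2f2 alone, beside 0.429%. Aldh1l2, Sult4a1 and Ugt2b35 passed the filter only through the genotype in which they were high, so they had to differ. They are included in the 17 of 64, the 23 of 64 and the 12 of 63 above.

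**Figure D2:**
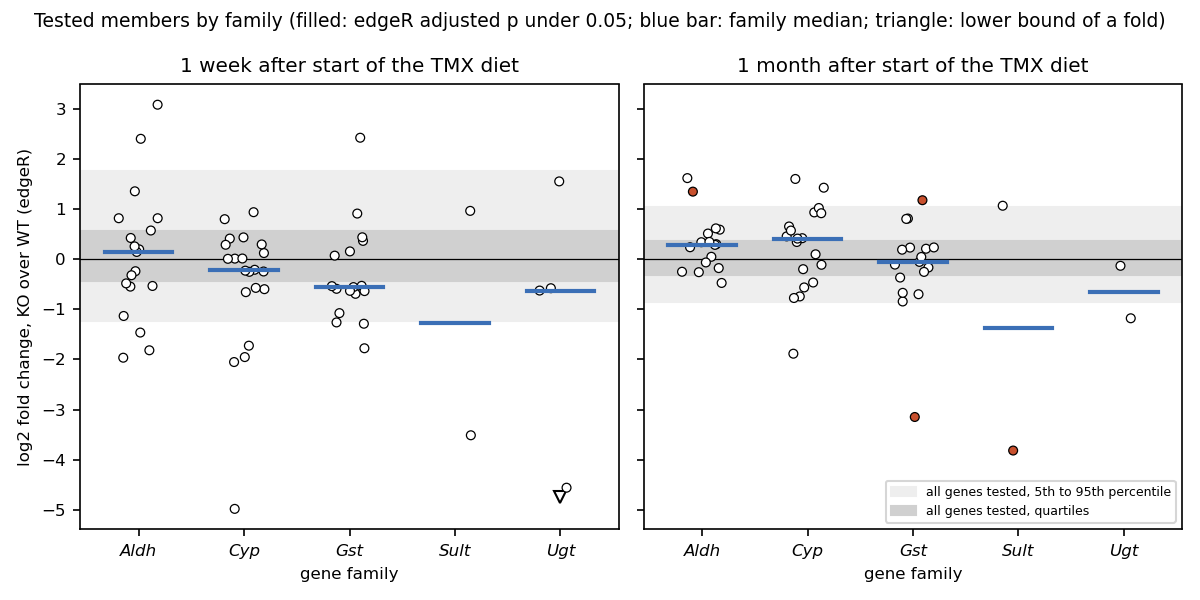
Log2 ratio of KO over WT (edgeR) for each tested gene of the 5 families at 1 week and 1 month, with family medians as blue bars, called genes filled, and grey bands for the quartiles and the 5th to 95th percentiles of all tested genes. No gene is filled at 1 week and 4 are filled at 1 month. The triangle marks Ugt2b35, whose KO libraries held no count, at the bound given by 3 counts over the group. The Sult and Ugt medians are not read, as they rest on genes that passed the filter through a single genotype or cannot be read singly.

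Among phase I enzymes at 1 week, Cyp2f2, a P450 known for bioactivation of naphthalene in airway cells (chr7:27119909-27133660), had 277, 231 and 242 CPM in WT and 22.3, 1.21 and 0 CPM in KO. All WT libraries were high, while KO replicate 3 had no count and KO replicate 1 was the highest KO library. The edgeR log2 ratio was -4.98 ± 1.42 (SE; adjusted p 0.177). Cyp2s1, an extrahepatic epithelial P450, had 35.6, 44.0 and 48.2 CPM in WT and 20.3, 4.75 and 7.97 CPM in KO, with a log2 ratio of -1.95 ± 0.54 (SE; adjusted p 0.171). Its genotypes did not overlap. Cyp4f15, a fatty acid and eicosanoid hydroxylase gene, had 171, 204 and 139 CPM in WT and 83.1, 70.8 and 1.23 CPM in KO, where KO replicate 3 was far below the other KO libraries. Cyp1a1, the classic target gene of the aryl hydrocarbon receptor, had 2.07, 28.7 and 5.49 CPM in WT and 3.11, 1.10 and 4.70 CPM in KO, and WT replicate 2 alone was high. Cyp51, which demethylates lanosterol in cholesterol synthesis, had 83.4, 81.3 and 76.1 CPM in WT and 61.6, 143 and 89.3 CPM in KO, with overlapping genotypes. Cyp2d22 was higher in each KO library, at 4.62, 4.79 and 3.52 CPM in WT and 11.3, 6.85 and 6.54 CPM in KO, with an adjusted p of 0.327.

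Aldehyde dehydrogenases split in both directions at 1 week. Aldh6a1, the mitochondrial enzyme of valine breakdown (chr12:84430717-84451004), had 55.2, 71.2 and 48.0 CPM in WT and 14.9, 11.7 and 18.2 CPM in KO. The highest KO library was below the lowest WT library, and the log2 ratio was -1.96 ± 0.32 (SE; adjusted p 0.0927). Aldh3a1, which clears aldehydes of lipid peroxidation and is abundant in cornea, had 305, 494 and 404 CPM in WT and 128, 171 and 42.5 CPM in KO, a log2 ratio of -1.82 ± 0.51 (SE; adjusted p 0.174), again without overlap. Aldh3a2, the fatty aldehyde dehydrogenase, had 17.6, 26.5 and 22.2 CPM in WT and 9.59, 10.2 and 4.09 CPM in KO (adjusted p 0.184). Aldh2, the mitochondrial acetaldehyde enzyme, lay the other way, with 153, 133 and 177 CPM in WT and 339.6, 174 and 300.3 CPM in KO. KO replicate 2 was below the highest WT library, so the genotypes overlapped. Aldh1l2, a mitochondrial dehydrogenase of folate metabolism, had 0.608, 0.700 and 0.518 CPM in WT and 2.43, 3.53 and 3.88 CPM in KO, and its cytosolic counterpart Aldh1l1 had 3.89, 3.50 and 1.35 CPM in WT and 4.73, 6.29 and 11.4 CPM in KO. Both were higher in every KO library, with adjusted p values of 0.115 and 0.314. Aldh1l2 passed the filter only through KO, so it had to differ. Aldh3b2, of the subfamily that acts on fatty aldehydes, had 195, 183 and 181 CPM in WT and 262, 316 and 253 CPM in KO, likewise without overlap (adjusted p 0.330).

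Of the phase II enzymes at 1 week, Ugt2b34 was among those that separated the genotypes. Ugt2b34 (chr5:86889767-86906937), of the subfamily that glucuronidates steroids and drugs, had 154, 169.6 and 161 CPM in WT and 4.73, 14.4 and 1.02 CPM in KO. The WT libraries lay close together and every KO library lay far below them, with a log2 ratio of -4.56 ± 0.82 (SE; adjusted p 0.0941). Ugt2b35, of the same subfamily (chr5:87000860-87013275), had 3.52, 3.50 and 4.15 CPM in WT and 0, 0 and 0 CPM in KO. It had 99 counts over the 3 WT libraries and 0 over the 3 KO libraries. Taking 3 counts over the whole KO group as the floor, it was at least 26.6-fold lower in KO, and the 95% lower limit of the ratio for counting error alone was 21.3-fold. Its adjusted p was 0.0927, but Ugt2b35 passed the filter only through WT, so it had to differ. Gstm1 had 19765, 20772 and 16819.6 CPM in WT and 11005, 8471 and 4028 CPM in KO, with a log2 ratio of -1.29 ± 0.42 (SE; adjusted p 0.222). KO replicate 3 was the lowest and no KO library reached the WT range. Gsta4, which conjugates aldehydes formed by lipid peroxidation, had 2152, 2221 and 2297 CPM in WT and 1349, 1799 and 1386 CPM in KO and a log2 ratio of -0.56 ± 0.28 (SE; adjusted p 0.387). Gsta3, an alpha-class transferase, had 79.4, 96.5 and 81.5 CPM in WT and 28.9, 41.1 and 4.70 CPM in KO, and Gstt2, a theta-class transferase, had 47.3, 55.8 and 33.7 CPM in WT and 22.6, 18.7 and 15.7 CPM in KO. Both were without overlap, with adjusted p values of 0.273 and 0.142. Gstm5 was higher in each KO library, at 4.74, 2.80 and 5.49 CPM in WT and 7.83, 12.8 and 49.9 CPM in KO, where replicate 3 was the highest. Gsto1, the omega-class transferase that reduces methylated arsenic, had 583, 661 and 536 CPM in WT and 488, 1441 and 1414 CPM in KO, with KO replicate 1 below all WT libraries and the other 2 above them. Gstt3 overlapped between genotypes, at 339.9, 351 and 383 CPM in WT and 346, 212 and 181 CPM in KO, as did Gstt1, which conjugates small halogenated molecules, at 17.7, 15.6 and 7.98 CPM in WT and 18.4, 24.0 and 13.5 CPM in KO. Of the sulfotransferases, Sult1a1, which sulfates phenols, had 2.92, 3.50 and 3.11 CPM in WT and 9.73, 6.29 and 2.45 CPM in KO. Sult4a1, a form found mainly in brain, had 1.94, 2.57 and 2.38 CPM in WT and 0.540, 0 and 0 CPM in KO. It passed the filter only through WT, so it had to differ.

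**Figure D3:**
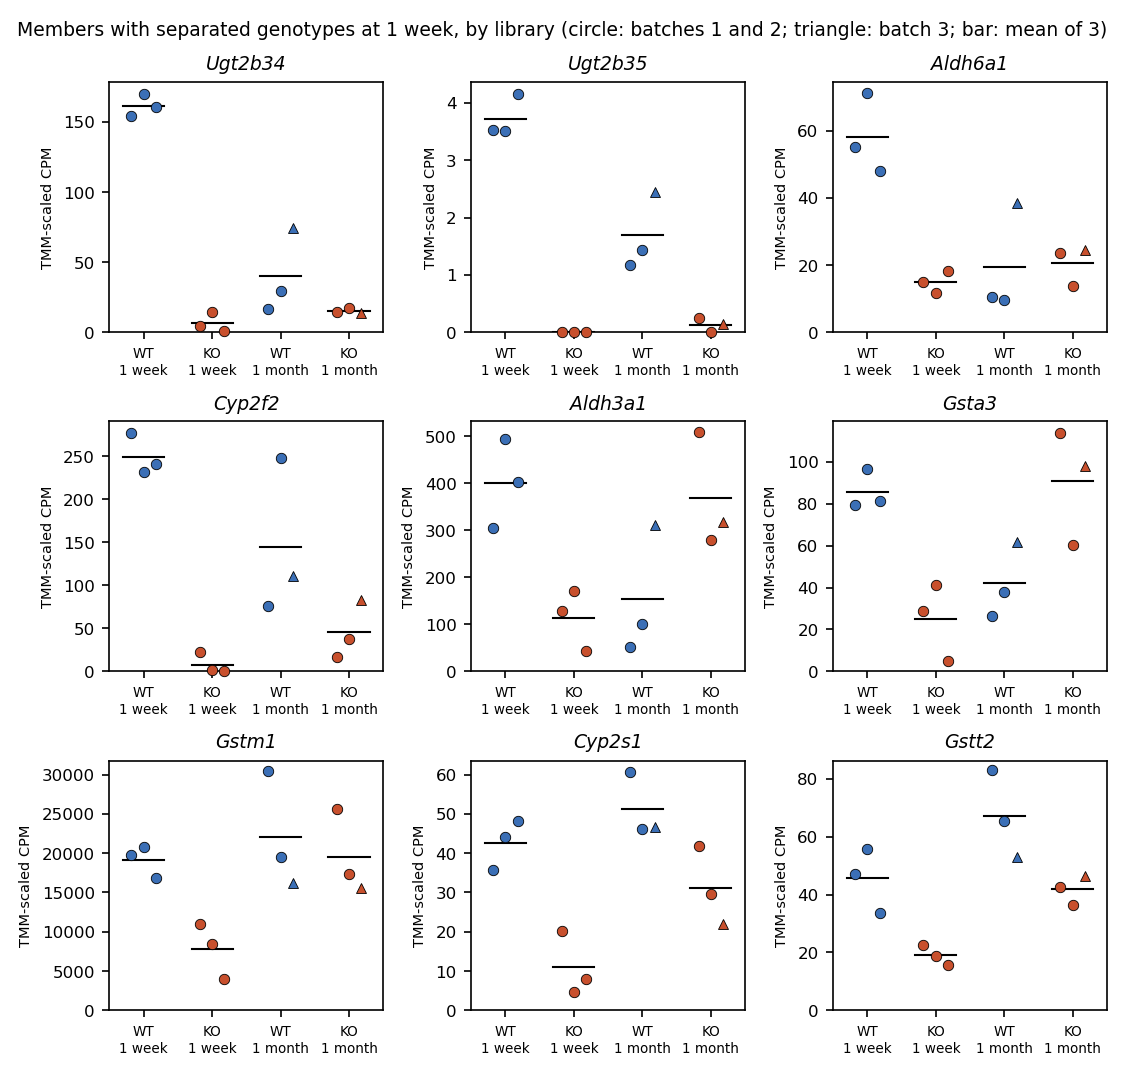
TMM-scaled CPM of 9 genes in each library, by genotype and time, with circles for batches 1 and 2, triangles for batch 3 and bars for the mean of 3. The 9 genes were picked for separated genotypes at 1 week, all lower in KO, so that direction was set by the choice. Of the 64 genes tested at 1 week, 28 had a positive log2 ratio. At 1 month several overlap, and Aldh3a1 and Gsta3 lie mostly higher in KO.

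Of the genes listed as retinoid enzymes, the Aldh1a genes had values in both directions at 1 week. Aldh1a1 (chr19:20492715-20643465) had 67.0, 81.3 and 68.3 CPM in WT and 38.2, 43.5 and 16.8 CPM in KO, lower in all KO libraries, with a log2 ratio of -1.13 ± 0.39 (SE; adjusted p 0.239). Aldh1a2 (chr9:71215789-71296243) had 2.92, 5.95 and 2.90 CPM in WT and 11.9, 43.6 and 44.4 CPM in KO, higher in all KO libraries, with a log2 ratio of 3.08 ± 0.61 (SE; adjusted p 0.110). Replicates 2 and 3 carried most of that difference. Aldh1a7, a close relative of Aldh1a1 with no 50-base window of its 3′ end in common with another gene, had 102, 83.9 and 94.9 CPM in WT and 81.5, 119 and 37.0 CPM in KO, with overlap. Aldh1a3 stayed between 1.49 and 3.88 CPM in all 6 libraries. Cyp26b1, which breaks down retinoic acid, had 19.6, 24.0 and 11.8 CPM in WT and 12.7, 10.9 and 51.7 CPM in KO, where KO replicate 3 was far above the rest. Cyp1b1, a P450 that can oxidise retinol and is a target of the aryl hydrocarbon receptor, had 13.5, 54.4 and 23.9 CPM in WT and 34.3, 28.5 and 16.4 CPM in KO, also with overlap. Beside these values, the 12 stromal and smooth muscle markers summed to 3530 to 5850 CPM in WT and 5506 to 11033 CPM in KO, and the 10 immune markers, of which 7 were tested, to 177 to 294 CPM in WT and 333 to 647 CPM in KO. Endothelial markers summed to 148 to 172 CPM in WT and 253 to 446 CPM in KO. Urothelial markers summed to 14278 to 17622 CPM in WT and 13841 to 18786 CPM in KO, with overlap. The part of the markers in the enzyme differences was not tested.

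**Figure D4:**
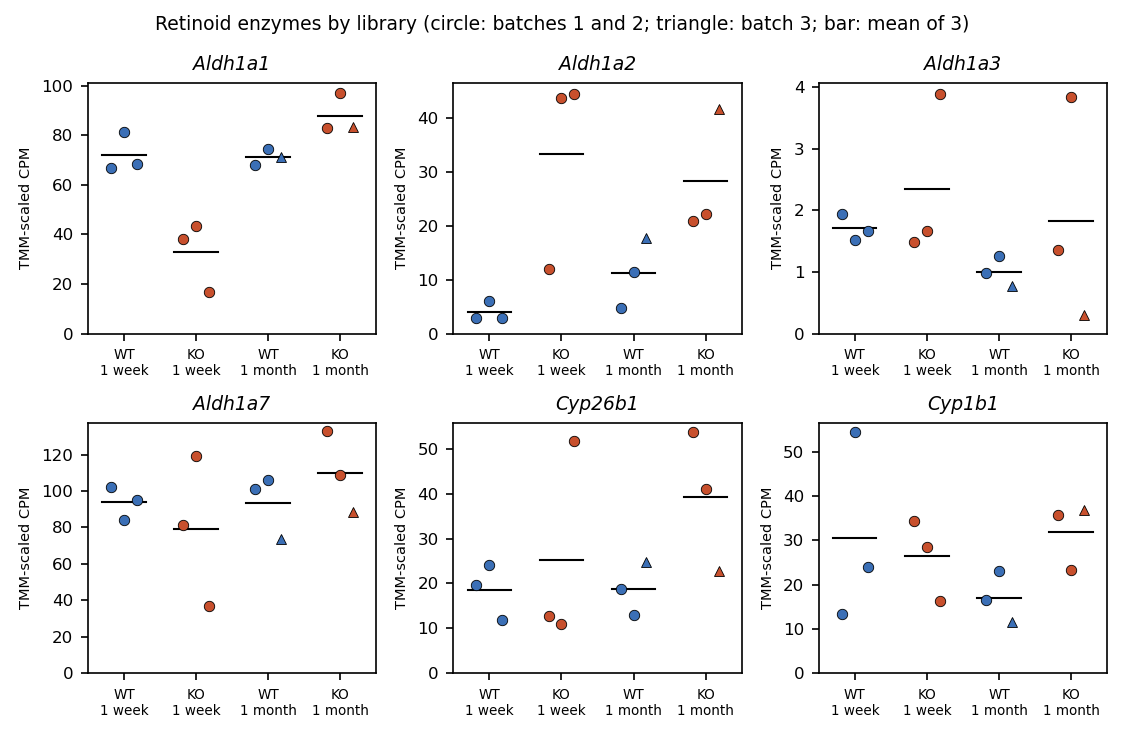
TMM-scaled CPM of 6 genes listed as retinoid enzymes in each library, by genotype and time, with circles for batches 1 and 2, triangles for batch 3 and bars for the mean of 3. Aldh1a2 is higher in every KO library at both times, and Aldh1a1 is lower in every KO library at 1 week and higher in every KO library at 1 month.

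The second comparison asks the same at 1 month, with batch as a covariate. Aldh1a2 and Gsta3 rose in KO, and Gstm6 and Sult5a1, both scarcely expressed, fell. These 4 of the 56 tested genes passed an adjusted p of 0.05 in edgeR, 2 higher and 2 lower, beside 2.22% of all 12139 tested genes, 0.997% higher and 1.22% lower. Gstm6 and Sult5a1 passed the filter only through the WT libraries and so had to differ, and nothing is read from the count of 4 against that share. DESeq2 called 3 of 51, Aldh1a2, Gsta3 and Ugt2b34, beside 6.98% of all genes it tested. At an unadjusted p under 0.05 there were 18 of 56, 11 higher and 7 lower, beside 21.5% of all tested genes, 11.1% higher and 10.3% lower. With scaling by library size only, those numbers were 20 higher and 4 lower. In all 11 of 56 did not overlap between genotypes, 7 higher and 4 lower, beside 13.3% of all, 5.72% higher and 7.58% lower. Gstm6 and Sult5a1, which had to differ, are among the lower genes in the 18 of 56, in the 11 of 56 and with scaling by library size only. The median log2 ratio was 0.20 over the 56 genes and -0.01 over all tested genes, against 0.43 and 0.22 with scaling by library size only. By family it was 0.29 for Aldh, 0.41 for Cyp, -0.05 for Gst, -1.37 for the 2 Sult and -0.66 for the 2 Ugt genes. With Sult5a1, which has 3 counts in KO, set at its count ratio, the Sult median is -1.46. Nothing is read from the Sult and Ugt medians. Sult5a1 passed the filter only through WT, while Sult1a1 had a log2 ratio of 1.07. The summed Sult level was 16.4 CPM in WT and 24.3 CPM in KO, with overlap. The Ugt genes tested were Ugt2b34 and Ugt1a5, and Ugt1a5 cannot be read singly. None of the enzyme genes passed with batch left out of the fit, beside 0% of all genes, and the number fell to 0 or 1 without WT replicate 1 or 2 or KO replicate 1 or 2, beside 0.361% to 0.674% of all genes. It was 14, beside 12.3% of all genes in each fit, without WT replicate 3 or without KO replicate 3.

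Aldh1a2 at 1 month had 4.72, 11.3 and 17.7 CPM in WT and 20.8, 22.2 and 41.7 CPM in KO. Every KO library was above every WT library, and the log2 ratio was 1.35 ± 0.30 (SE; adjusted p 0.0378). Within batch 2 the difference of mean log2 values was 1.49 and within batch 3 it was 1.21. Gsta3 (chr1:21240589-21265661) had 26.4, 38.0 and 61.5 CPM in WT and 114, 60.1 and 98.0 CPM in KO, a log2 ratio of 1.18 ± 0.28 (SE; adjusted p 0.0488). KO replicate 2 was just below WT replicate 3, so the genotypes overlapped across batches, while within batches the differences were 1.37 and 0.67. Gstm6 (chr3:107938847-107943749), of the mu class, had 2.56, 4.50 and 3.37 CPM in WT and 0.616, 0 and 0.457 CPM in KO, a log2 ratio of -3.15 ± 0.70 (SE; adjusted p 0.0378). Sult5a1 (chr8:123140192-123158315), a sulfotransferase family member, had 1.97, 2.52 and 2.29 CPM in WT and 0, 0.479 and 0 CPM in KO, with 39 counts in WT against 3 in KO. That ratio is 15.9-fold lower in KO, with a 95% interval of 5.04 to 80.2 for counting error only, and the adjusted p was 0.0448. Gstm6 and Sult5a1 passed the filter only through WT, and requiring a mean of at least 20 counts removed them from the test.

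Promoter letters are shown for Aldh1a2 and Gsta3, the genes that rose, as the stretch from 250 bases before to 50 bases after the RefSeq start (GRCm38.p6, gene strand). Capitals mark matches, on either strand, to TGACNNNGC, the core of the antioxidant response element, and to GCGTG, the core of the xenobiotic response element. Aldh1a2, chr9:71215539-71215838, plus strand, holds both without overlap of the matches, and Gsta3, chr1:21240335-21240634, plus strand, holds TGACNNNGC.
Aldh1a2: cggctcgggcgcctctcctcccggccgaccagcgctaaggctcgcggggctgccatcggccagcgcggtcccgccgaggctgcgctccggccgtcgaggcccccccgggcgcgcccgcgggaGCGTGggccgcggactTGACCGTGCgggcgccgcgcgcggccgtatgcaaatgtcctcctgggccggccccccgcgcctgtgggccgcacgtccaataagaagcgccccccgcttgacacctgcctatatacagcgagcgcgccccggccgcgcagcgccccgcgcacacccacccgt
Gsta3: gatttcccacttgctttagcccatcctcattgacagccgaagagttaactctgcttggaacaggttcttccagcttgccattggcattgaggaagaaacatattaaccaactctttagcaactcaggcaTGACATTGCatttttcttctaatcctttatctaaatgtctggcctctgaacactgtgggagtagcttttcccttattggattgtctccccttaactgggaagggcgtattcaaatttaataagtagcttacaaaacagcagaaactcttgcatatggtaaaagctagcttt
The promoters of Gstm6 and Sult5a1 held neither motif. TGACNNNGC occurred in 12.4% of 32851 promoters of that length, in 7.3% of the 164 promoters of 142 enzyme genes and in 11.3% of the 62 promoters of 52 tested enzyme genes. GCGTG occurred in 32.4%, 22.0% and 30.6% of them. A match describes letters in this window and not a bound site.

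Genes listed as retinoid enzymes all had positive fold changes at 1 month among the 5 tested, beside 6023 of all 12139 tested genes. The 5 include Aldh1a7, which was listed as a relative of Aldh1a1. Of the 5, Aldh1a2 passed in edgeR, beside 2.22% of all tested genes. Aldh1a1 had 68.1, 74.5 and 71.4 CPM in WT and 83.1, 97.1 and 83.4 CPM in KO, higher in each KO library but with a log2 ratio of 0.30 ± 0.19 (SE; adjusted p 0.396). Cyp26b1 had 18.7, 13.0 and 24.8 CPM in WT and 53.6, 41.1 and 22.8 CPM in KO. Its 2 KO libraries of batch 2 were high and that of batch 3 was not, with a log2 ratio of 1.02 ± 0.34 (SE; adjusted p 0.122). Cyp1b1 had 16.5, 23.0 and 11.6 CPM in WT and 35.8, 23.3 and 36.8 CPM in KO, with a log2 ratio of 0.93 ± 0.29 (SE; adjusted p 0.103) and a within-batch difference of 0.55 in batch 2 and 1.62 in batch 3. It was higher in each KO library. Aldh1a7 had 101, 106 and 73.4 CPM in WT and 133, 109 and 88.7 CPM in KO, with overlap and a log2 ratio of 0.24 ± 0.19 (SE; adjusted p 0.499). KO replicate 3, the library of batch 3, was also the KO library of this time with Xist.

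Among the other enzymes at 1 month, Ugt2b34 had 16.5, 29.5 and 74.7 CPM in WT and 14.4, 17.1 and 13.8 CPM in KO. WT replicate 3 was far above the rest, and the log2 ratio was -1.18 ± 0.38 (SE; adjusted p 0.118). Cyp2f2 had 75.5, 248 and 111 CPM in WT and 16.5, 37.1 and 83.1 CPM in KO, with KO replicate 3 above WT replicate 1, and a log2 ratio of -1.88 ± 0.80 (SE; adjusted p 0.278). Aldh3a1 had 52.1, 100.1 and 311 CPM in WT and 509, 279.9 and 317 CPM in KO. The 2 batch 2 WT libraries were low and that of batch 3 was like KO, so the difference was 2.38 within batch 2 and 0.03 within batch 3, and the fitted log2 ratio was 1.62 ± 0.58 (SE; adjusted p 0.178). Aldh6a1 had 10.6, 9.54 and 38.6 CPM in WT and 23.7, 13.7 and 24.3 CPM in KO, again with WT replicate 3 the highest. Cyp2e1, the ethanol-inducible P450, had 1.18, 1.26 and 24.8 CPM in WT and 4.93, 4.31 and 21.9 CPM in KO, where both batch 3 libraries were high irrespective of genotype. Cyp2s1 had 60.8, 46.1 and 46.7 CPM in WT and 41.8, 29.6 and 22.1 CPM in KO, lower in each KO library, with an adjusted p of 0.106, and Cyp1a1 had 0.393, 1.26 and 2.29 CPM in WT and 4.44, 1.28 and 4.41 CPM in KO. Gstm1 had 30476, 19467 and 16173 CPM in WT and 25577, 17294 and 15545 CPM in KO, Gsta4 had 3026, 2946 and 1949 CPM in WT and 4396, 2447 and 1323 CPM in KO, and both overlapped between genotypes. Aldh7a1, of lysine breakdown, had 17.3, 14.4 and 21.4 CPM in WT and 24.5, 30.0 and 24.8 CPM in KO, higher in each KO library (adjusted p 0.195). Gstt2 had 83.0, 65.5 and 52.9 CPM in WT and 42.7, 36.3 and 46.4 CPM in KO, lower in each KO library (adjusted p 0.122). Sult1a1 had 6.69, 6.66 and 21.7 CPM in WT and 19.2, 34.8 and 12.6 CPM in KO, with overlap, and Aldh2 had 1255, 1023 and 401 CPM in WT and 770.1, 597 and 418 CPM in KO, with WT replicate 3 below all KO libraries. Immune markers summed to 720 to 1408 CPM in WT and 355 to 442 CPM in KO at this time, where 4 of the 7 tested, Cd74, C1qa, C1qb and Csf1r, fell in KO. Stromal markers summed to 10598 to 13556 CPM in WT and 8043 to 9517 CPM in KO. Col1a1, with means of 6231 CPM in WT and 3698 CPM in KO, carried most of that difference. Of the 12 stromal markers, 5 had a positive and 7 a negative log2 ratio, and each overlapped between genotypes. Pdgfrb, of mural cells and fibroblasts, was the 1 of 12 that passed, higher in KO. Urothelial markers summed to 19999 to 34662 CPM in WT and 14592 to 19748 CPM in KO, where Krt20, a marker of superficial cells, was the 1 of 16 that passed, lower in KO (log2 ratio -1.76, adjusted p 0.00601). The basal markers Krt5 and Trp63 had log2 ratios in the other direction, 1.44 ± 0.34 (SE; adjusted p 0.0505) and 0.71 ± 0.30 (SE; adjusted p 0.194). Endothelial markers summed to 115 to 166 CPM in WT and 180 to 324 CPM in KO, higher in every KO library, and 3 of 5, Pecam1, Kdr and Emcn, had an unadjusted p under 0.05, all higher in KO. Of all tested genes, 2.22% passed in edgeR, 0.997% higher and 1.22% lower, and 11.1% were higher at an unadjusted p under 0.05. The part of the markers in the enzyme differences was not tested.

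**Figure D5:**
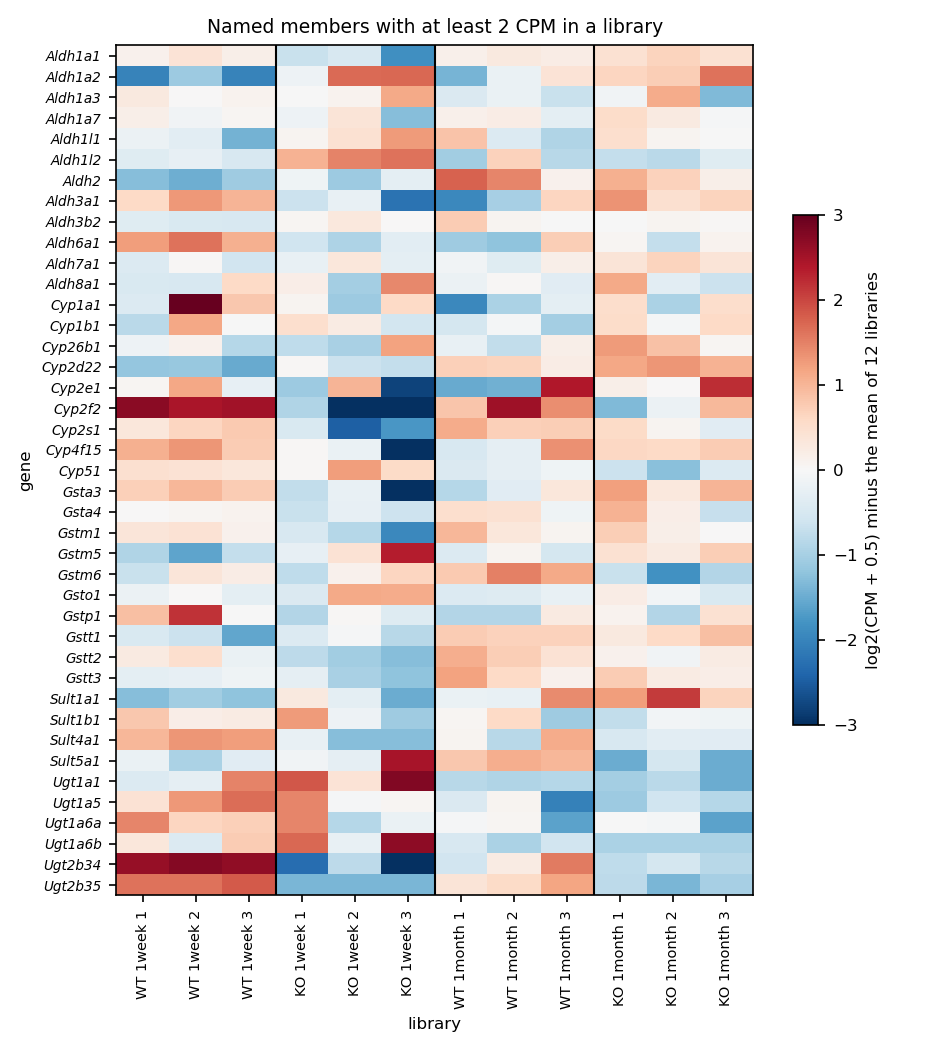
Log2(CPM + 0.5) minus the mean of 12 libraries for 41 named genes with at least 2 CPM in a library, ordered by family, with colours stopping at 3 in either direction. Blue marks low and red marks high libraries, and at 1 week Ugt2b34, Ugt2b35 and Cyp2f2 are red in the 3 WT libraries and blue in the 3 KO libraries.

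The third comparison tested whether the KO difference at 1 month departed from that at 1 week. None of the 69 genes that could be tested passed in edgeR, beside 0% of all 13122 tested genes. At an unadjusted p under 0.05 there were 15 of 69, 9 with a larger and 6 with a smaller log2 ratio at 1 month, beside 19.9% of all tested genes, 7.87% larger and the rest smaller. DESeq2 called 8 of 68, 6 larger and 2 smaller, beside 7.00% of all genes, 2.33% larger and 4.67% smaller. The 2 smaller were Gstm6 and Sult5a1, which passed the filter at 1 month only through WT. Both are also among the 15 of 69, as are Aldh1l2 and Ugt2b35. At 1 week Aldh1l2 passed the filter only through KO and Ugt2b35 only through WT. These counts are therefore not read as a result about the enzymes. The smallest adjusted p values belonged to Aldh6a1, with a difference of 2.34 ± 0.52 (SE; adjusted p 0.104), and Aldh3a1, with 3.46 ± 0.82 (SE; adjusted p 0.104). Gsta3 had a difference of 2.97 ± 0.80 (SE; adjusted p 0.111) and Ugt2b34 one of 3.39 ± 0.92 (SE; adjusted p 0.113). For Aldh1a1, lower in every KO library at 1 week and higher in every KO library at 1 month, it was 1.44 ± 0.44 (SE; adjusted p 0.141). For Aldh1a2, higher in every KO library at both times, it was -1.72 ± 0.72 (SE; adjusted p 0.222). Without KO replicate 3 of 1 week, 6 genes passed, Aldh1a1, Aldh3a1, Aldh3a2, Aldh6a1, Gsta3 and Ugt2b34, beside 2.32% of all genes.

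Genes that work with these enzymes were counted from lists by function. At 1 week no gene of any of the 6 lists passed in edgeR. At an unadjusted p under 0.05 there were 4 of 23 tested retinoid genes outside the enzyme families, 3 of 8 xenobiotic sensors, 4 of 14 Nrf2 targets, 2 of 8 P450 redox partners, 10 of 30 other drug-metabolising enzymes and 1 of 6 efflux transporters, and DESeq2 called 2, 2, 2, 0, 3 and 1 genes of these lists in that order. Over all tested genes the shares were 15.5% at an unadjusted p under 0.05 and 7.52% in DESeq2. At 1 month the numbers at an unadjusted p under 0.05 were 4, 0, 6, 2, 10 and 0 in the same order, beside 21.5% of all genes, and DESeq2 called 4, 0, 3, 0, 2 and 0, beside 6.98%. Of the 14 targets of Nrf2, the transcription factor of the antioxidant response, the 4 were all lower in KO at 1 week. Of all tested genes, 5.03% were lower and 10.5% higher at an unadjusted p under 0.05 at 1 week. At 1 month those shares were 10.3% lower and 11.1% higher. In edgeR 2 of the 14 targets rose at 1 month, Cbr3 and Nqo1, beside 2.22% of all tested genes, 0.997% higher. The 6 with an unadjusted p under 0.05 at 1 month were 4 higher and 2 lower, the lower ones being Gclm, of glutathione synthesis, with a log2 ratio of -0.75 ± 0.25 (SE; adjusted p 0.116), and Hmox1, heme oxygenase, with -0.79 ± 0.29 (SE; adjusted p 0.148). Nqo1, a quinone reductase, had 141, 232 and 86.1 CPM in WT and 40.9, 67.4 and 15.9 CPM in KO at 1 week, lower in each KO library. At 1 month it had 35.0, 36.7 and 52.9 CPM in WT and 96.8, 68.7 and 76.7 CPM in KO, higher in each KO library, with a log2 ratio of 0.98 ± 0.23 (SE; adjusted p 0.0448). Cbr3, a carbonyl reductase, had a log2 ratio of 1.98 ± 0.42 (SE; adjusted p 0.0314) at 1 month. Of 23 tested genes of retinoid binding, transport and oxidation, 1 rose at 1 month, Rdh12, a retinol dehydrogenase gene, beside 0.997% of all tested genes. Rdh12 had 4.72, 7.20 and 14.7 CPM in WT and 20.7, 19.8 and 25.7 CPM in KO, with a log2 ratio of 1.41 ± 0.30 (SE; adjusted p 0.0318). Of 30 tested other drug-metabolising enzymes, 1 rose at 1 month, Tpmt, which methylates thiopurines, beside the same 0.997%. None of the 8 tested xenobiotic sensors such as the aryl hydrocarbon receptor, none of the 8 redox partners of P450 and none of the 6 tested efflux transporters passed at 1 month.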

How the data were processed

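The files hold whole-number counts of reads per gene from 3′ mRNA libraries (QuantSeq FWD, stranded in the sense direction per the labels' protocols), deposited by the authors as one table for 1 week and one for 1 month. The submitters' processing notes name Bowtie, TopHat, HTSeq, DESeq2 and the mm10 build, with no versions; the annotation is not given in the sources used here. Samples were grouped by the labels' genotype and time; replicates are numbered in accession order and are labelled as separate animals, and the labels carry conflicting animal numbers for WT replicate 3 of 1 month. Where separate origin is not shown, p-values measure only the spread between these samples. All pairs of replicates differed beyond sampling noise (chi-square per degree of freedom 8.59 to 185).

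The enzyme genes and the lists by function were chosen with earlier results of these data known. Counts were fitted over all genes with edgeR 4.0.16 (R 4.3.3) using TMM scaling, filterByExpr with its minimum count of 10, glmQLFit (robust) and glmQLFTest, two-sided; p-values were adjusted by Benjamini-Hochberg across every tested gene and called at 0.05. Separate fits covered 1 week (no covariate), 1 month (batch) and the difference between the times (all 12 libraries, batch). Standard errors are the fold change over the square root of F. DESeq2 1.42.0 was an alternative test. Within-batch differences use log2(CPM + 0.5). Genes named were those called, the 4 most abundant of each family in WT, the retinoid enzymes, a fixed set of known enzymes, and up to 5 genes per time and direction with an unadjusted p under 0.05 and no overlap. Aldh3a2, Gstp2, Rbp4, Gclm, Hmox1, Adh1 and the listed markers were named after their values were seen. The fits were also run on simulated counts with known changes, and at 1 week the number recovered varied strongly between runs. A gene that did not pass at 1 week is therefore not shown to be unchanged. Of the genes, 178 matched GENCODE M21 by symbol, 3 by synonym and 1 not at all. Read length is not given in the sources used here, so sharing of 3′ ends was judged with 50-base windows.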

Additional observations from a re-analysis of the deposited data

How the results depend on the processing

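Of the 4 genes called at 1 month, none changed sign where a value was compared. For Gstm6 and Sult5a1 this is no support, since they passed the filter only through WT. Gstm6 and Sult5a1 had no adjusted p in DESeq2, so their values there were not compared, and they left the test with a mean of at least 20 counts. Sult5a1 also left the test without WT replicate 2 or WT replicate 3. At 1 week, where none passed, 3 passed with no filter on low counts (Aldh6a1, Ugt2b34 and Ugt2b35), 12 in DESeq2, and 0 to 6 when a library was left out in turn, the 6 without KO replicate 3. At 1 month, where 4 passed, 10 passed with no filter, 2 with a mean of at least 20 counts (Aldh1a2 and Gsta3), 2 without robust fitting (Aldh1a2 and Gstm6), 0 without the batch covariate, 14 with batch 2 only, and 0 to 14 when a library was left out in turn. In the difference between the times, where none passed, 1 passed with no filter (Aldh6a1), 8 in DESeq2, and 0 to 6 when KO replicate 3 of either time was left out. Over all genes, the 1 month count was 269 with batch, 0 without it, 1276 with no filter and 1474 with batch 2 only, and at 1 week 8 became 957 in DESeq2 and 320 without KO replicate 3. Scaling by library size only moved the median log2 fold change of all genes at 1 month from -0.01 to 0.22 and in the difference from -0.04 to 0.21. The median of the enzyme genes at 1 month, 0.20, was 0.43 with that scaling, 0.10 without WT replicate 3 and 0.09 with no filter. The cause of these changes was not tested. No paired analysis was possible because the labels give no replicate numbers and no pairing of animals. Low counts limit the Sult, Ugt1a and most Cyp genes.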

Other observations

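Of 23 tested retinoid genes outside the enzyme families, 6 did not overlap between genotypes at 1 week (26.1%, beside 26.5% of all tested genes) and 3 at 1 month (13.0%, beside 13.3%). The genes named here were chosen after their values were seen. Rbp4, which carries retinol in plasma, had 5.96, 8.64 and 9.54 CPM in WT and 67.5, 105 and 36.0 CPM in KO at 1 week, higher in each KO library, with a log2 ratio of 3.11 ± 0.46 (SE; adjusted p 0.0927). At 1 month it had 42.1, 74.0 and 42.5 CPM in WT and 63.7, 62.0 and 145 CPM in KO, with overlap and a log2 ratio of 0.66 ± 0.34 (SE; adjusted p 0.285). Ttr, transthyretin, which binds retinol-loaded Rbp4, had 141, 95.8 and 82.0 CPM in WT and 18.2, 5.43 and 15.5 CPM in KO at 1 month and fell in KO, with an edgeR log2 ratio of -3.00 ± 0.41 (SE; adjusted p 0.0113). At 1 week it had 36.9, 26.0 and 26.5 CPM in WT and 10.1, 3.31 and 1.02 CPM in KO, with a log2 ratio of -2.61 ± 0.71 (SE; adjusted p 0.171). Ttr is also 1 of 5 listed hepatocyte markers, of which the other 4, Alb, Apoa1, Apob and Fgb, were too low to test. Adh1, an alcohol dehydrogenase that oxidises retinol, had 1458, 1288 and 2299 CPM in WT and 1135, 519.8 and 640.5 CPM in KO at 1 week, lower in each KO library (adjusted p 0.257), and 5711, 3884 and 2599.9 CPM in WT and 2956, 1809 and 1541 CPM in KO at 1 month, with overlap (adjusted p 0.0974).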
